A study of Mus musculus with 31 samples.

Results

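The data are 6 lists of broad peaks from mouse primordial germ cells at E10.5 (E for embryonic day), 3 for H3K27me3 and 3 for H3K9me3. They were taken as all E10.5 ChIP libraries of the series and hold 66465 of the 265293 peaks in its 18 ChIP lists. Primordial germ cells are the embryonic precursors of eggs and sperm. All 6 libraries came from wild-type cells of a C57BL/6 background crossed with GOF18delta_PE-EGFP, a green fluorescent reporter driven by Pou5f1 regulatory sequence and used to sort germ cells. Cells of several embryos were pooled at E10.5, and no sex is stated for them. Each ChIP was made without fixation from 1000 cells. The only other libraries used here are the 12 from E13.5, 3 of each mark from female and 3 of each mark from male germ cells of the same background. Peak lists hold no expression, so the germ-cell identity of the sorted cells was not checked against markers.

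H3K27me3 is trimethylation of lysine 27 of histone H3. Polycomb repressive complex 2 lays it down, typically over the promoters of silent developmental regulators, where it can be removed again when a gene is switched on. H3K9me3 is trimethylation of lysine 9 and marks constitutive heterochromatin, such as pericentromeric repeats and many retroelements, where SETDB1 and the SUV39H enzymes deposit it. Germ cells of these stages lose most of their DNA methylation, and both marks have been studied as means of repression during that loss.

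Which of the 6 lists were long and which were short did not follow the mark. H3K27me3 replicates 1, 2 and 3 held 11330, 1703 and 23141 peaks, and H3K9me3 replicates 1, 2 and 3 held 2903, 26281 and 1107 peaks. Peaks covered 19.9, 2.08 and 35.5 Mb for H3K27me3, against 2.00, 46.6 and 0.441 Mb for H3K9me3. H3K27me3 replicates 1 and 3 and H3K9me3 replicate 2 were thus the long lists. The mean difference was 2.82 Mb (exact two-sided permutation p = 0.8, and 0.8 after Benjamini-Hochberg adjustment over 6 tests), and it changed sign without H3K27me3 replicate 3 (-5.36 Mb), H3K9me3 replicate 1 (-4.35 Mb) or H3K9me3 replicate 3 (-5.13 Mb). Sequencing depth is unknown, and an exact permutation test of 3 against 3 libraries cannot go below p = 0.1. Nothing in the labels says that replicates came from separate pools of embryos, so the spread behind each p-value is that of these libraries and may be technical. Sample numbers in the peak names leave open whether replicates 1 and 2 of a mark are the same samples processed again. Peaks of H3K27me3 replicate 3 carry the name of an H3K9me3 input as their control, and the part of that input in its list was not tested.

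On average, lists of the same mark shared more than lists of different marks. The Jaccard index, the shared length over the combined length of a pair of lists, averaged 0.184 within H3K27me3 and 0.0282 within H3K9me3, against 0.00452 between the marks. Single pairs overlapped, since H3K27me3 replicate 2 with H3K9me3 replicate 1 had 0.0214 and H3K9me3 replicates 2 and 3 had 0.00750. The mean within marks exceeded that between marks by 0.101 (one-sided exact permutation p = 0.1, the smallest that the 10 splits allow). Without H3K27me3 replicate 1 or 3 this difference was 0.0298 or 0.0384. The short lists lay largely inside the long ones. H3K27me3 replicate 2 had 91.5% of its length in replicate 1 and 93.4% in replicate 3. H3K9me3 replicates 1 and 3 had 89.6 and 79.4% of their length in replicate 2.

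Peaks of both marks were mostly of the order of 1 kb, and each mark also formed far wider domains. Median widths were 923.5, 827 and 728 bp in H3K27me3 replicates 1, 2 and 3, against 468, 1058 and 298 bp in H3K9me3 replicates 1, 2 and 3. H3K9me3 replicate 2 lay above every H3K27me3 list and the other H3K9me3 lists below, so the groups overlapped. The difference of the mean median widths was 218 bp (exact permutation p = 0.4, adjusted p = 0.6), and it ran from 63.2 bp without H3K9me3 replicate 3 to 443 bp without H3K9me3 replicate 2. Peaks of 5 kb or wider held 34.5, 10.51 and 34.7% of the H3K27me3 length, against 1.88, 30.1 and 0% of the H3K9me3 length. That difference of 15.9 points gave an exact permutation p of 0.2 (adjusted p = 0.4). It was 10.6 points without H3K9me3 replicate 3, 23.9 without H3K27me3 replicate 2 and 25.6 without H3K9me3 replicate 2. The widest H3K27me3 peaks spanned 43733, 11146 and 42589 bp and the widest H3K9me3 peaks 31915, 105710 and 2779 bp. The 3 long lists, of either mark, thus had the largest shares of wide peaks.

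H3K27me3 peaks also lay closer together in the long lists. The median gap to the next peak was 7.307, 146 and 3.195 kb in H3K27me3 replicates 1, 2 and 3, against 437, 14.06 and 266 kb in H3K9me3 replicates 1, 2 and 3. H3K27me3 replicates 1 and 3 had fewer peaks than H3K9me3 replicate 2, yet shorter gaps. Gaps within 10 kb made up 52.9 and 64.8% in these H3K27me3 lists, against 45.7% in H3K9me3 replicate 2. Concentration on the scale of 1 Mb showed no order by mark. The fewest 1-Mb bins that together held 50% of a list's length were 6.86, 3.09 and 7.58% of all bins for H3K27me3 and 9.73, 8.07 and 1.28% for H3K9me3 (difference -0.515 points, exact permutation p = 0.8, adjusted p = 0.8). The sign of this difference turned without H3K27me3 replicate 2 (0.861), H3K9me3 replicate 1 (1.17) or H3K9me3 replicate 2 (0.339), and with 1107 peaks per list (0.767).

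**Figure D1:**
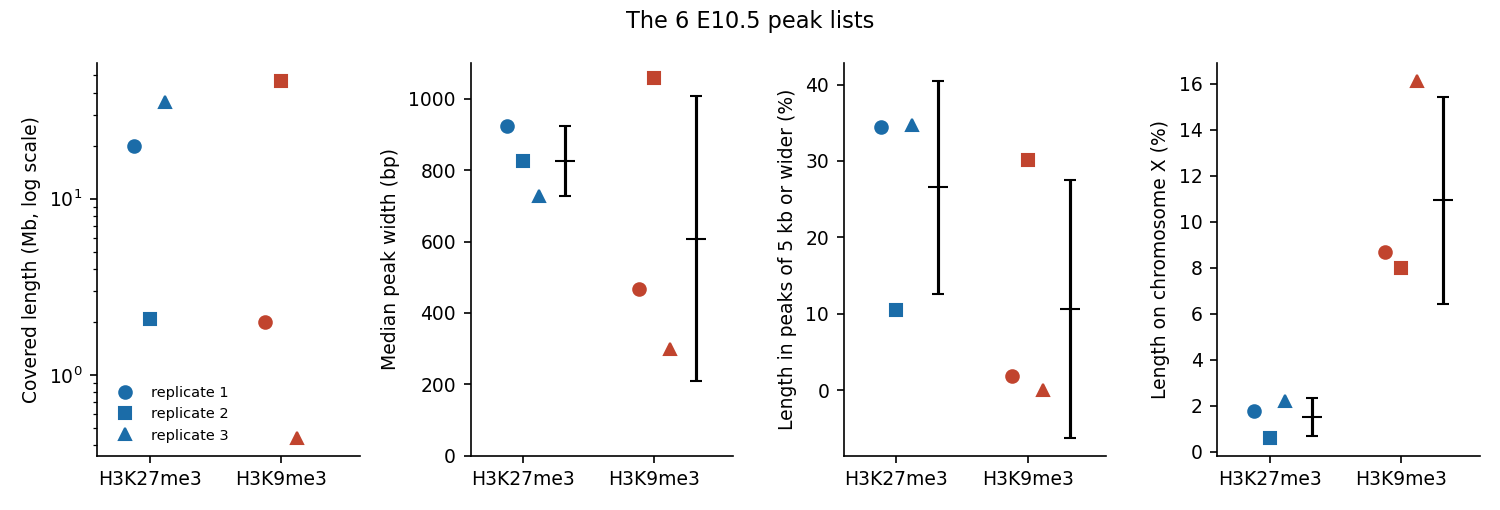
Covered length (Mb, log scale), median peak width (bp), percent of length in peaks of 5 kb or wider, and percent of length on chromosome X, for the 3 H3K27me3 lists (blue) and the 3 H3K9me3 lists (red), with circles, squares and triangles for replicates 1, 2 and 3 and black bars for the mean ± SD. Covered length, width and wide peaks overlapped between the marks, whereas the X shares of 0.610 to 2.20% for H3K27me3 lay below all those of 7.97 to 16.1% for H3K9me3.

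The sex chromosomes separated the marks. X held 1.79, 0.610 and 2.20% of the H3K27me3 length in replicates 1, 2 and 3, against 8.69, 7.97 and 16.1% of the H3K9me3 length. X makes up 6.31% of the genome length, so every H3K27me3 list lay below that share and every H3K9me3 list above it. The difference was -9.39 points (exact permutation p = 0.1, the smallest possible, and 0.3 after adjustment). Per Mb, X carried 0.23 ± 0.13 times the autosomal mean of H3K27me3 and 1.91 ± 0.95 times that of H3K9me3 (SD, n = 3 each). Y, of which peaks reached only the first 2.90 Mb, held 2, 1 and 0 peaks of H3K27me3 and 17, 85 and 28 peaks of H3K9me3. The Y shares were 0.00387, 0.0179 and 0% of the H3K27me3 length, against 1.18, 0.387 and 4.12% of the H3K9me3 length (difference -1.89 points, exact permutation p = 0.1, adjusted p = 0.3). Without H3K9me3 replicate 3 the Y difference was -0.778 points, while the X difference stayed between -6.80 and -10.9 points whichever list was left out. Since the sex of the cells is not given, the number of X and Y chromosomes behind these values is unknown.

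Autosomes divided between the marks as well. Relative to each list's autosomal mean per Mb, the 3 lists of each mark did not overlap on 13 of the 19 autosomes (68.4%). H3K27me3 was higher on 7 (36.8%), namely 2, 4, 5, 6, 8, 15 and 19, and H3K9me3 was higher on 6 (31.6%), namely 1, 3, 7, 10, 12 and 14. Chromosome 19 stood out for H3K27me3, at 1.79, 2.46 and 1.73 times the autosomal mean in replicates 1, 2 and 3, against 0.76, 0.83 and 0.40 times for H3K9me3. Every H3K27me3 list exceeded every H3K9me3 list there. Chromosome 2 averaged 1.37 ± 0.14 times for H3K27me3 and 0.66 ± 0.16 times for H3K9me3. Chromosome 15 had 1.08 ± 0.05 times for H3K27me3 and 0.67 ± 0.16 times for H3K9me3 (SD, n = 3 each).

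Smaller margins separated H3K27me3 from H3K9me3 on chromosomes 4 (1.28 ± 0.13 and 0.99 ± 0.10 times), 5 (1.41 ± 0.13 and 1.09 ± 0.19), 6 (1.05 ± 0.02 and 0.79 ± 0.15) and 8 (1.06 ± 0.18 and 0.72 ± 0.12). In the other direction chromosome 7 had 0.94, 1.00 and 1.02 times the autosomal mean of H3K27me3 in replicates 1, 2 and 3, against 1.06, 2.31 and 1.84 times for H3K9me3. The H3K27me3 lists lay close together on this chromosome, while the H3K9me3 lists spread widely. Chromosome 12 averaged 0.77 ± 0.02 times for H3K27me3 and 1.39 ± 0.60 times for H3K9me3, and chromosome 1 averaged 0.69 ± 0.08 and 1.43 ± 0.59 times. H3K27me3 was lower than H3K9me3 also on chromosomes 3 (0.53 ± 0.04 and 0.76 ± 0.16 times), 10 (0.60 ± 0.02 and 0.86 ± 0.16) and 14 (0.68 ± 0.05 and 0.84 ± 0.07). These 6 autosomes were described by their spread over 3 lists of each mark, without a test.

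On the 6 remaining autosomes the lists overlapped. Chromosome 11 was rich in H3K27me3, with 1.79, 1.33 and 1.82 times the autosomal mean, but 1 of the H3K9me3 lists, replicate 3, reached 1.57 times against 0.79 and 0.55 in replicates 1 and 2. Means for H3K27me3 and H3K9me3 were 0.53 ± 0.03 and 0.83 ± 0.31 times on chromosome 16, 0.82 ± 0.10 and 1.14 ± 0.26 on chromosome 13, 0.78 ± 0.12 and 0.81 ± 0.24 on chromosome 18, 1.05 ± 0.12 and 1.10 ± 0.25 on chromosome 9, and 1.02 ± 0.14 and 1.12 ± 0.05 on chromosome 17 (SD, n = 3 each).

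Within autosomes the marks leaned toward opposite ends. Mouse autosomes are telocentric, so the lowest coordinates lie next to the centromere. The first 20% of each autosome held 12.5 ± 1.97% of the autosomal H3K27me3 length and 34.1 ± 4.63% of the autosomal H3K9me3 length. The last 30% held 44.2 ± 1.99% for H3K27me3 and 20.5 ± 3.52% for H3K9me3. The mean position of the covered bases was 59.3 ± 1.65% of the way along the chromosome for H3K27me3 and 41.1 ± 3.41% for H3K9me3 (SD, n = 3 each). These positions were described without a test.

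**Figure D2:**
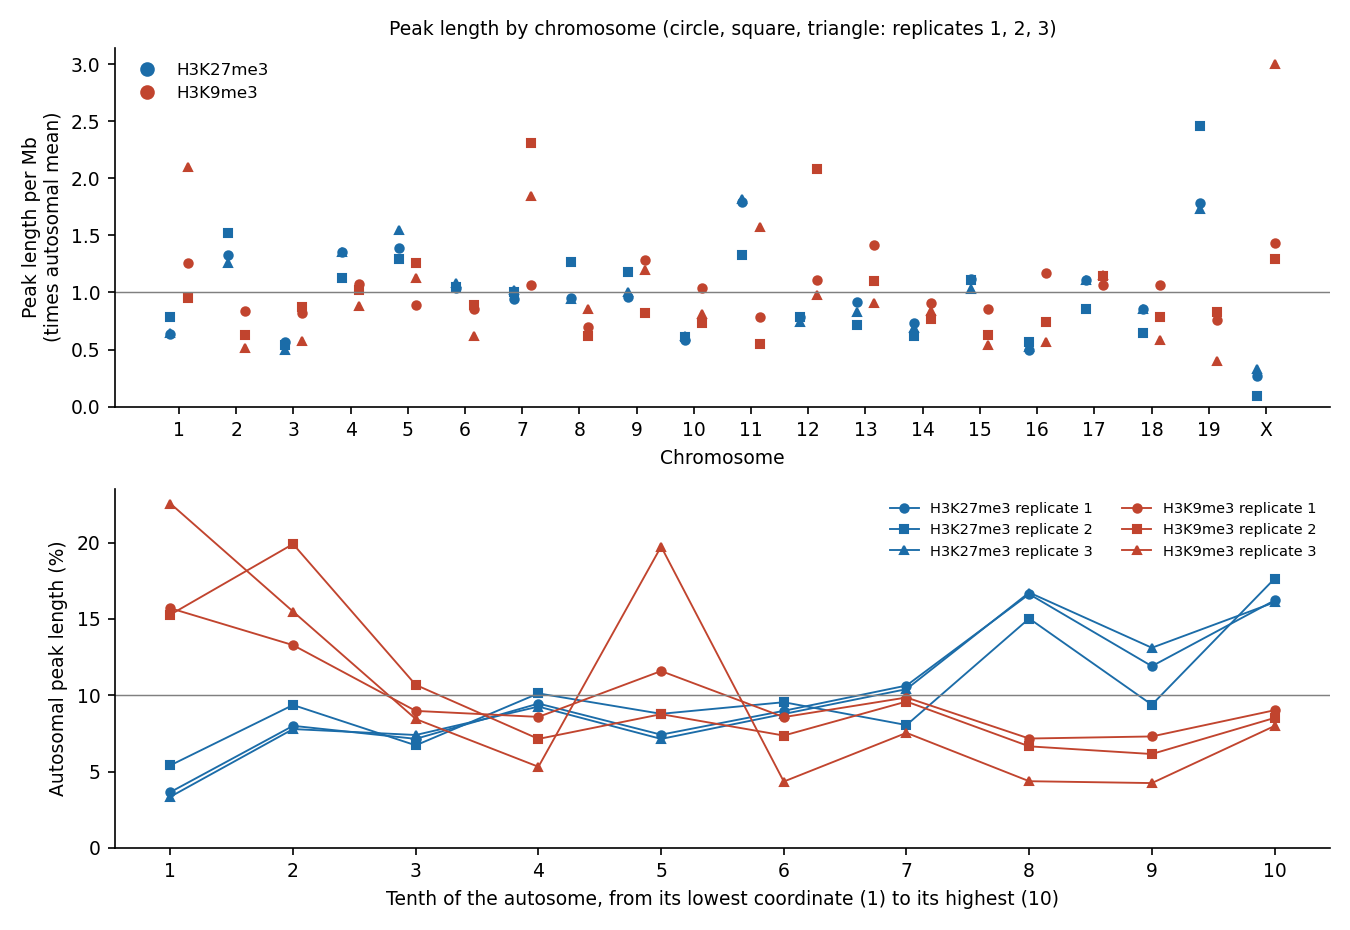
Upper panel: peak length per Mb of each chromosome as times the autosomal mean of the same list, for H3K27me3 (blue, left of each pair) and H3K9me3 (red, right), with circles, squares and triangles for replicates 1, 2 and 3; Y is not drawn. Lower panel: percent of each list's autosomal peak length in each of 10 equal segments of the autosomes. Chromosome 19 had more H3K27me3 (1.99 ± 0.40 and 0.66 ± 0.23 times), X had more H3K9me3 (0.23 ± 0.13 and 1.91 ± 0.95 times), and the H3K9me3 lines lie above the H3K27me3 lines in the first segments and below them in the last.

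The genome was next compared in bins of 1 Mb. Each list's length in a bin was expressed in ppm of its own covered length, that is as bp per Mb covered, and log2(ppm + 100) was tested with limma. This puts the lists on a common scale but does not remove the effect of list length. The 100 ppm added stands for fewer bp in a short list. H3K9me3 replicates 2 and 3 had peaks in 2477 and 524 of all 2652 bins of 1 Mb. Of the 2047 bins with peaks in at least 3 of the 6 lists, 585 (28.6%) differed at a Benjamini-Hochberg adjusted p of 0.05, 331 (16.2%) with more H3K27me3 and 254 (12.4%) with more H3K9me3. The other mark was at 0 ppm in all 3 of its lists in 38 and 109 of them. These bins passed the filter only through the mark in which they were called higher, so their calls are not independent of the filter. When a single list was left out, every called bin kept its sign in each fit that still tested it, and 173 and 72 were called each time. The bins at 0 ppm in the other mark could not be among these. They had peaks in only 3 lists, so they were not tested without a list of their own mark. A count moved by more than 1.5 times without H3K27me3 replicate 1 (186 and 163 of 1545 tested bins) and without H3K9me3 replicate 1 (298 and 147 of 1766). So did a count without H3K9me3 replicate 2 (300 and 117 of 1347), and the count for H3K27me3 also without H3K27me3 replicate 3 (207 of 1497). Each of these fits tested fewer bins than the 2047 of the main setting.

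H3K27me3 was highest over H3K9me3 in chromosome 15 from 102000001 to 103000000 (mm9). This bin held 8657, 18585 and 6600 ppm of the H3K27me3 length in replicates 1, 2 and 3, against 0 ppm in all 3 H3K9me3 lists. The log2 change was 6.69 ± 0.61 (SE, limma adjusted p = 0.00048), and its size is set in part by the 100 ppm added. Chromosome 11 from 96000001 to 97000000 held 11086, 8512 and 9014 ppm of H3K27me3, against 0, 6.35 and 0 ppm of H3K9me3 (log2 change 6.55 ± 0.54). Chromosome 19 from 44000001 to 45000000 held 9356, 7298 and 7935 ppm of H3K27me3 against 0 ppm in all H3K9me3 lists (6.37 ± 0.54), and chromosome 6 from 83000001 to 84000000 held 7399, 8328 and 5732 ppm against 0, 28.7 and 0 ppm (6.04 ± 0.55). In all of these bins the lists of the 2 marks lay far apart.

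The other named H3K27me3 bins began at 12000001 on chromosome 8 (log2 change 5.64 ± 0.55), 86000001 on 17 (5.57 ± 0.64), 129000001 on 4 (5.34 ± 0.70), 114000001 on 6 (5.30 ± 0.72), 74000001 on 1 (5.26 ± 0.63) and 77000001 on 11 (5.21 ± 0.65). H3K9me3 reached at most 136 ppm in any list in them, on chromosome 1. The limma adjusted p-values of the 10 H3K27me3 bins lay between 0.00048 and 0.00105.

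H3K9me3 exceeded H3K27me3 most in chromosome 1 from 85000001 to 86000000, which held 0 ppm in all 3 H3K27me3 lists, against 11889, 5529 and 67460 ppm in H3K9me3 replicates 1, 2 and 3. The log2 change was -7.37 ± 0.87 (SE, limma adjusted p = 0.00076). H3K9me3 replicate 3 had the highest value, and it is the shortest list. Of the 10 named bins 5 lay on X, from 120000001 (-6.57 ± 0.78), 4000001 (-6.25 ± 0.65), 121000001 (-5.98 ± 0.74), 31000001 (-5.95 ± 0.58) and 3000001 (-5.84 ± 0.65). The X bin from 120000001 held 16.2, 0 and 0 ppm of H3K27me3, against 11382, 3192 and 26350 ppm of H3K9me3. The others were chromosome 5 from 95000001 (-6.32 ± 0.65), chromosome 12 from 18000001 (-6.04 ± 0.61), the Y bin from 2000001 (-5.99 ± 1.00) and chromosome 17 from 13000001 (-5.79 ± 0.61). Their limma adjusted p-values lay between 0.0006 and 0.002. All 20 named bins kept their call in every other setting that gave them a value. Named bins at 0 ppm in all lists of the other mark got no value without a list of their own mark. For H3K27me3 these were the bins from 102000001 on chromosome 15, 44000001 on 19, 12000001 on 8 and 114000001 on 6. For H3K9me3 they were those from 85000001 on chromosome 1, 95000001 on 5, and 4000001, 31000001 and 3000001 on X.

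Chromosome 12 carried the longest run of called bins of each kind, although its shares of 15.1 and 16.1% of 93 tested bins were near those of the whole genome. Whether called bins cluster was not tested. Bins with more H3K27me3 ran for 5 Mb from 109000001 to 114000000, and bins with more H3K9me3 ran for 7 Mb from 18000001 to 25000000. On X, 1 of the 103 tested bins (0.971%) had more H3K27me3 and 23 (22.3%) had more H3K9me3, against 16.2 and 12.4% in the whole genome. Among autosomes the share with more H3K27me3 ran from 9.68% on chromosome 3 to 25.96% on chromosome 11, and the share with more H3K9me3 from 5.77% on chromosome 11 to 18.5% on chromosome 7.

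**Figure D3:**
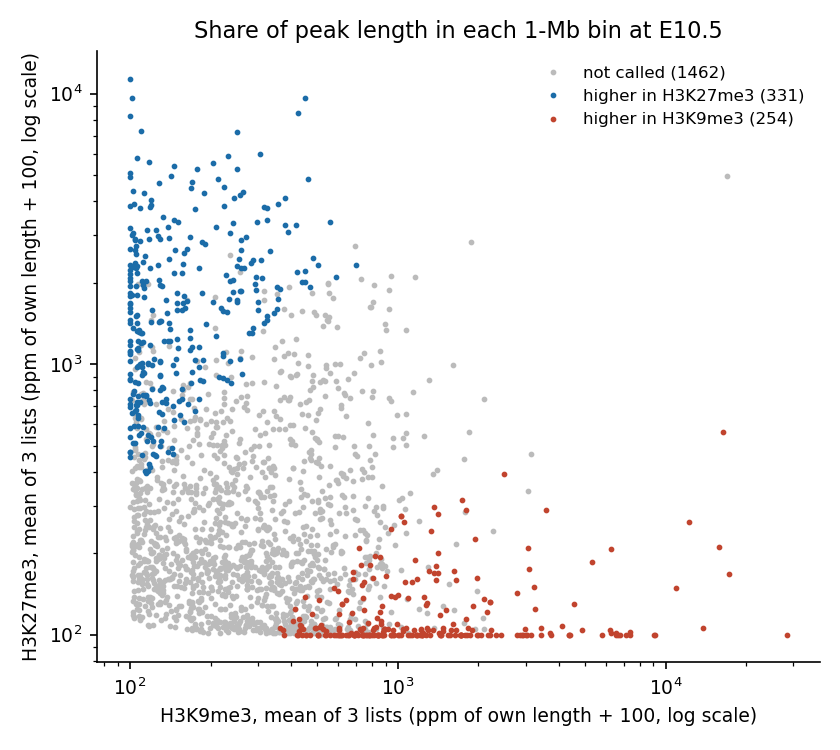
Each point is a tested 1-Mb bin, placed by its mean H3K9me3 (horizontal) and mean H3K27me3 (vertical) over 3 lists, in ppm of each list's own length plus 100, both on log scales. The 331 bins called higher in H3K27me3 (blue) lie along the upper left and the 254 called higher in H3K9me3 (red) along the bottom, with 1462 bins not called (grey).

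The opposite placement of the marks was clearer over large bins than over small ones. Spearman's rho of covered length between an H3K27me3 and an H3K9me3 list was below 0 in all 9 pairs at 1 Mb (-0.273 to -0.00784) and at 5 Mb (-0.297 to -0.0530), in 7 of 9 pairs at 100 kb, in 5 at 10 kb and in 3 at 1 kb (-0.0229 to 0.0561). Lists of the same mark had rho of 0.258 to 0.924 at 1 Mb and 0.113 to 0.632 at 1 kb. These correlations run over bins of the same genome, most of them empty at the small sizes, and are given as a description.

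The distance between marks depended on the length of the list searched. From an H3K27me3 peak to the nearest H3K9me3 peak, the median was 139, 596 and 2179 kb for H3K27me3 replicate 1 with H3K9me3 replicates 2, 1 and 3. Replicate 2 of H3K27me3 gave 121, 469 and 2019 kb, and replicate 3 gave 141, 627 and 2223 kb, in the same order. For a given H3K9me3 list the 3 H3K27me3 lists thus nearly coincided, and H3K9me3 replicate 3, with the fewest peaks, gave the longest distances. When each list was cut to its 1107 top-scoring peaks, the median distance to the other mark was 858 to 2018 kb, against 0 to 189 kb from an H3K27me3 peak to another H3K27me3 list. Measured from H3K9me3 peaks, these ranges overlapped, with 507 to 2845 kb to an H3K27me3 list and 0 to 885 kb to another H3K9me3 list.

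Around H3K27me3 peaks the long H3K9me3 list thinned out. Bins inside the peaks measured from were left out here, so the values are of their flanks, while the genome mean takes in all bins. H3K9me3 replicate 2 covered bins of 1 kb within 1 kb of a peak of H3K27me3 replicate 3 at 0.084 times its genome mean, 3 to 10 kb away at 0.39 times, 30 to 100 kb away at 0.60 times and 300 to 1000 kb away at 1.36 times. At 1000 to 3000 kb it stood at 1.98 times the mean. Around H3K27me3 replicate 1 the same list had 0.35 times its mean within 1 kb and 1.87 times at 1000 to 3000 kb. H3K27me3 was likewise sparse near H3K9me3. Within 1 kb of peaks of H3K9me3 replicate 2, H3K27me3 replicates 1, 2 and 3 stood at 0.12, 0.064 and 0.092 times their means, and at 1.95, 1.85 and 1.96 times at 300 to 1000 kb. At 1000 to 3000 kb they were again low, at 0.52, 0.17 and 0.64 times. Low coverage beside a long list was not particular to the other mark. At 3 to 10 kb from H3K27me3 replicate 3, H3K27me3 replicates 1 and 2 stood at 0.18 and 0.0039 times their means, after 4.16 and 0.51 times within 1 kb. Of the length of H3K27me3 replicate 2, 93.4% lay inside peaks of replicate 3, which these values leave out. At 3 to 10 kb from H3K9me3 replicate 2, H3K9me3 replicates 1 and 3 stood at 0.074 and 0.29 times, after 1.55 and 2.42 times within 1 kb.

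The depletion did not hold in every pair. H3K9me3 replicate 1 stood at 5.19 times its mean within 1 kb of H3K27me3 replicate 2 and at 1.12 times within 1 kb of H3K27me3 replicate 1, but at 0.52 times within 1 kb of H3K27me3 replicate 3. H3K9me3 replicate 2 was at 1.05 times its mean within 1 kb of H3K27me3 replicate 2. H3K27me3 replicate 2 stood at 3.18 times its mean within 1 kb of H3K9me3 replicate 3. The values of 5.19 and 3.18 times rest on few bases, 0.392% of 2886 bins of 1 kb and 0.251% of 1947. The part of the start of chromosome 9 in them was not tested.

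**Figure D4:**
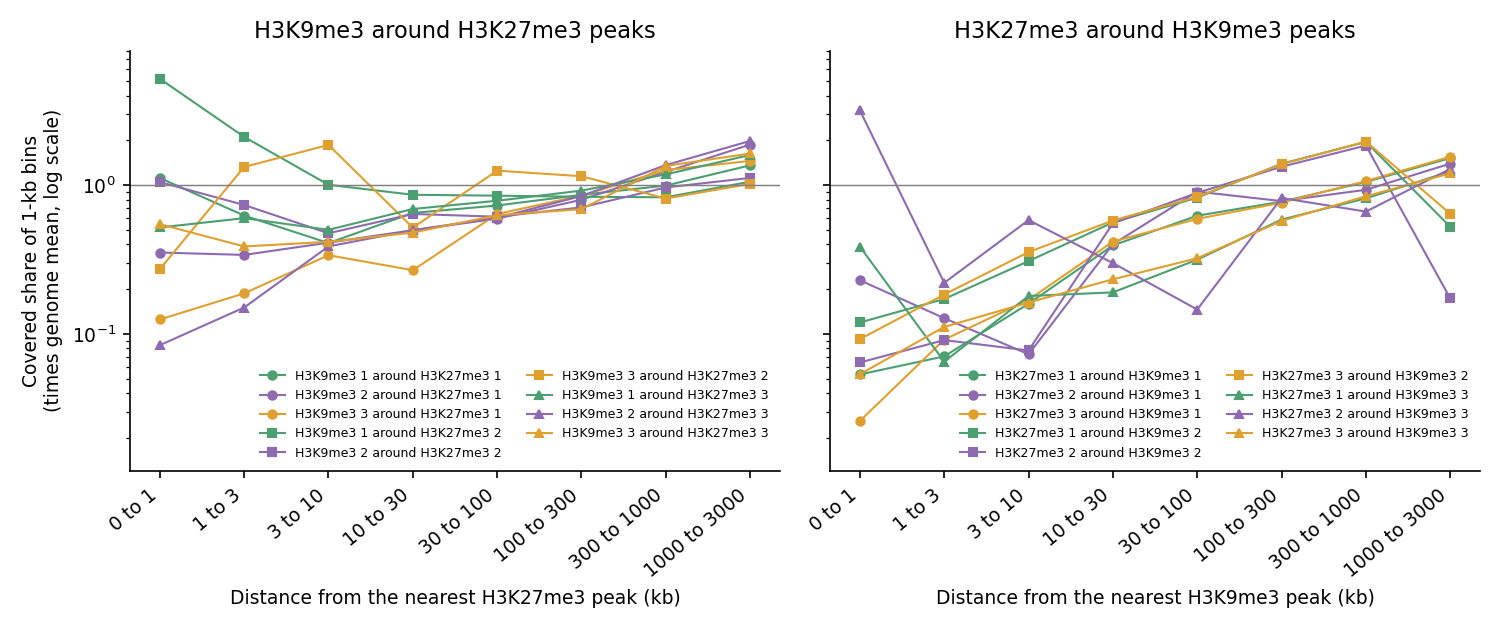
Left: coverage of each H3K9me3 list around the peaks of each H3K27me3 list; right: coverage of each H3K27me3 list around the peaks of each H3K9me3 list. The horizontal axis is the distance of 1-kb bins from the nearest peak (kb), the vertical axis the covered share of these bins as times the genome mean (log scale), the marker the replicate measured from (circle, square and triangle for 1, 2 and 3), and the colour the replicate covered (green, purple and yellow for 1, 2 and 3). Bins inside the peaks measured from are left out. H3K9me3 replicate 2 climbs from 0.084 to 1.98 times with distance from H3K27me3 replicate 3. H3K9me3 replicate 1 near H3K27me3 replicate 2 lies highest at 5.19 times, which is 0.392% of 2886 bins.

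Shared bases made up 0.0330 to 5.02% of the H3K27me3 length and 0.0831 to 7.46% of the H3K9me3 length over the 9 pairs. Expected shared length was taken as the product of the 2 covered lengths over the genome length. Log2 of observed over expected was 3.31, -0.87 and 2.35 for H3K27me3 replicate 1 with H3K9me3 replicates 1, 2 and 3. It was 5.76, 1.51 and 5.27 for H3K27me3 replicate 2 and -1.20, -4.02 and 1.35 for H3K27me3 replicate 3, in the same order. The pair with the longest lists, H3K27me3 replicate 3 and H3K9me3 replicate 2, shared 38.7 kb, which was 0.109% of the H3K27me3 and 0.0831% of the H3K9me3 length. H3K27me3 replicate 1 shared more, with 149 kb in H3K9me3 replicate 1 and 192 kb in H3K9me3 replicate 2. Of the 9 pairs 3 lay below expectation and 6 above, with a mean of 1.50 ± 3.16 (SD over pairs, which share lists), so the sign depended on the pair. Leaving out a list gave means of 0.16 (without H3K27me3 replicate 2), 0.75 (H3K9me3 replicate 3), 0.93 (H3K9me3 replicate 1), 2.81 (H3K9me3 replicate 2) and 2.89 (H3K27me3 replicate 3). The mean was 0.28 without the 7 bins of 10 kb that hold a peak in all 18 lists of the series, a choice made after seeing the data, and 4.99 with 1107 peaks per list.

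In each list, the peaks that overlapped the other mark had a smaller median width and higher scores than the other peaks. The scores, which the authors gave each peak, only rank peaks within a list here. In H3K27me3 replicate 1, the 461 peaks that overlapped any H3K9me3 list had a median width of 339 bp and a median score percentile of 97.6, against 964 bp and 48.3 for the other peaks. In H3K27me3 replicate 2 the 201 overlapping peaks had 344 bp and 93.9, against 939 bp and 44.5, and in replicate 3 the 105 overlapping peaks had 325 bp and 93.2, against 729 bp and 49.9. The 374, 519 and 50 overlapping peaks of H3K9me3 replicates 1, 2 and 3 had score percentiles of 91.0, 98.3 and 97.5. Their median widths were 371.5, 549 and 253 bp, against 494, 1074 and 299 bp, so the contrast was small in H3K9me3 replicates 1 and 3. Those of H3K9me3 replicate 2 included 21 peaks of 5 kb or wider. Shared pieces had median lengths of 200 to 340 bp over the 9 pairs.

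In H3K27me3 replicates 1 and 2, overlap with H3K9me3 replicate 2 was most frequent among the narrowest peaks. Of peaks under 500 bp, 11.5, 30.8 and 0.616% of H3K27me3 replicates 1, 2 and 3 overlapped H3K9me3 replicate 2. Of peaks of 5 kb or wider, 0.668% (5 of 748), 8.57% (3 of 35) and 0.672% (9 of 1340) did. With H3K9me3 replicate 1 the shares of peaks under 500 bp were 9.33, 27.7 and 0.282%. With H3K9me3 replicate 3 they were 0.284, 0.554 and 0.437%, so that H3K27me3 replicate 3 had the lowest share against H3K9me3 replicates 1 and 2 but not against replicate 3. In H3K27me3 replicate 1, 42.7% of the peaks that overlapped H3K9me3 were also in another H3K27me3 list, against 81.2% of the other peaks. H3K27me3 replicate 2 went the same way, at 81.6 against 99.2%, but replicate 3 the other way, at 56.2 against 35.8%. Overlapping peaks of H3K9me3 replicates 1, 2 and 3 were in another H3K9me3 list in 97.6, 71.9 and 76.0% of cases, against 90.7, 9.61 and 77.4% of the other peaks.

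Bins of 10 kb show where each mark formed a territory of its own, where a list holds a bin if at least 1 kb of it lies in peaks. H3K27me3 replicates 1, 2 and 3 held 5164, 651 and 8658 of the 264164 bins, and H3K9me3 replicates 1, 2 and 3 held 597, 13084 and 77. All 3 H3K27me3 lists and no H3K9me3 list held 628 bins. All 3 H3K9me3 lists and no H3K27me3 list held 37. The shortest lists limit these counts: without H3K27me3 replicate 2 the first count was 4833, and without H3K9me3 replicate 3 or 1 the second was 575 or 68.

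The longest H3K27me3 territory was 80 kb on chromosome 15 from 102730001 to 102810000, inside the strongest 1-Mb bin, with 68.6, 30.6 and 76.2 kb in H3K27me3 replicates 1, 2 and 3 and 0 kb in every H3K9me3 list. It was followed by chromosome 2 from 74480001 to 74540000 (42.4 ± 20.2 kb), chromosome 6 from 52170001 to 52220000 (36.4 ± 14.6 kb), chromosome 9 from 91250001 to 91300000 (32.5 ± 19.7 kb) and chromosome 8 from 126090001 to 126140000 (26.1 ± 10.1 kb, SD, n = 3 each). H3K9me3 was at 0 kb in all of them. At E13.5, all 3 female and at least 2 of the 3 male H3K27me3 lists also held bins there, and no H3K9me3 list did. Genes were not placed at these positions, because the annotation at hand is of another build. Genes of homeobox and Pax families, developmental regulators that are typical Polycomb targets, were counted by chromosome in RefSeq GRCm38.p6. Only symbols that match a chosen list of family names were counted, so the families are not complete. These genes were most numerous on chromosomes 2 (20 genes), 6 and 11 (15 each) and 15 (9), with 1 on chromosome 9 and 4 on chromosome 8.

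Runs of bins held by all 3 H3K9me3 lists and no H3K27me3 list reached at most 5 bins, against 8 for H3K27me3. H3K9me3 replicate 3 held only 77 bins, which limits how long such runs can be. The longest was on Y from 2850001 to 2900000, with 17.6, 46.9 and 11.9 kb in H3K9me3 replicates 1, 2 and 3 and 0 kb in the H3K27me3 lists. Chromosome 7 from 67000001 to 67040000 held 9.03, 35.5 and 6.18 kb of H3K9me3. The other named runs were X from 120110001 to 120130000 (9.004 ± 5.24 kb), chromosome 1 from 85320001 to 85340000 (8.44 ± 8.79 kb) and X from 166610001 to 166630000 (7.93 ± 7.09 kb, SD, n = 3 each), all with 0 kb of H3K27me3. The X run from 120110001 and the Y run had H3K9me3 in all 3 male and no female lists at E13.5, whereas the other 3 had it in all 6.

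Bins with both marks were rare. A total of 61 bins, merging into 55 regions, had at least 1 kb of H3K27me3 and at least 1 kb of H3K9me3 in any of the 9 pairs of lists. They were 0.681% of the 8961 bins held by any H3K27me3 list and 0.466% of the 13101 held by any H3K9me3 list, and 444 would be expected from the product of these 2 numbers over all bins. Among single pairs, H3K27me3 replicate 3 with H3K9me3 replicate 2 had 52 such bins against 429 expected, and H3K27me3 replicate 1 with the same list had 37 against 256. In 5 of the 9 pairs the count lay below expectation. The 4 pairs above it had 5 or 6 bins each, of which 1 or 2 lay outside the first 40 kb of peaks on chromosome 9.

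Of the 61 bins, 25 had both marks in 1 pair, 28 in 2 pairs and 8 in 3 or more. H3K9me3 replicate 2 held all 61, and 51 were held by no other H3K9me3 list. H3K27me3 replicates 1, 2 and 3 held 37, 10 and 52. Without H3K9me3 replicate 2 the count was 10, and without H3K27me3 replicate 3 it was 40. The marks shared bases in 23 of the bins and in 38 lay side by side within the 10 kb without touching. Such bins were thinly covered, with medians of 1.83 kb for H3K27me3 replicate 3 and 1.79 kb for H3K9me3 replicate 2, against 2.92 and 2.52 kb over all the bins these lists held. Chromosome 9 had 11 of the bins, and chromosomes 2 and 5 had 7 each. None lay on chromosomes 12, 15, 19, X or Y.

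**Figure D5:**
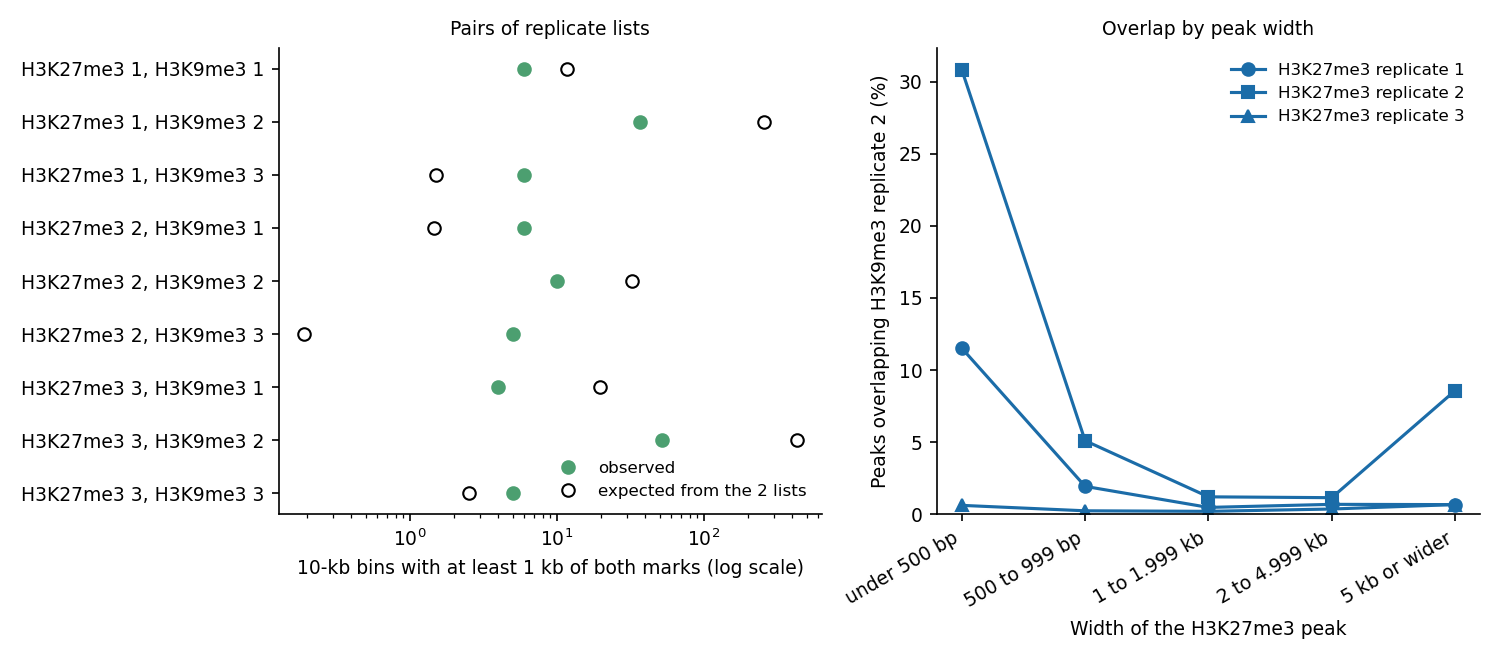
Left: number of 10-kb bins with at least 1 kb of both marks in each pair of an H3K27me3 and an H3K9me3 replicate (filled), with the number expected from the bins each list holds (open), on a log scale. Right: percent of H3K27me3 peaks of each width class that overlap H3K9me3 replicate 2, for H3K27me3 replicates 1, 2 and 3. The observed count is below the expected count in 5 of 9 pairs, with 52 against 429 for the 2 longest lists, and the overlap is highest for peaks under 500 bp in H3K27me3 replicates 1 and 2.

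The region with both marks in all 9 pairs was the start of chromosome 9, from 3000001 to 3040000, where 3 of the 4 bins had them in every pair. It held 27.6, 27.2 and 7.63 kb in H3K27me3 replicates 1, 2 and 3, against 36.4, 38.3 and 11.4 kb in H3K9me3 replicates 1, 2 and 3. Its best peak ranked at or above the 99.9th percentile of scores in each of the 6 lists. All 4 of its bins also had a peak in every one of the 18 lists of the series, and it supplied 14.4 to 83.9% of the shared length of a pair. Bins with a peak in all 18 lists numbered 7 in the genome, and 5 of them were among the 61. Input libraries were not used here, so whether the input was also high there was not tested.

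The other regions named by the number of pairs differed in what they held. Chromosome 2 from 98500001 to 98510000 had both marks in 6 pairs, with 1.62, 1.87 and 1.69 kb of H3K27me3 and 0, 5.08 and 1.66 kb of H3K9me3, and all 12 E13.5 lists held it. Chromosome 17 from 39980001 to 39990000 had 4 pairs, with 1.43, 2.14 and 0 kb of H3K27me3 against 4.24, 5.72 and 0 kb of H3K9me3. Chromosome 4 from 118220001 to 118230000 also had 4 pairs and between 0.651 and 1.32 kb in all 6 lists. In these 3 regions the marks lay on the same bases, with up to 1868, 2138 and 1316 shared bp.

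A further 3 named regions spanned 20 kb, and the extent of sharing differed among them. Chromosome 18 from 37900001 to 37920000 held 16.4, 1.13 and 16.1 kb of H3K27me3 in replicates 1, 2 and 3, and 3.45 kb of H3K9me3 in replicate 2 only, all of it inside H3K27me3 peaks. At E13.5 no H3K9me3 list held it, while all 3 female and 2 male H3K27me3 lists did. Chromosome 9 from 122180001 to 122200000 held 12.1, 0 and 12.5 kb of H3K27me3 against 0, 4.41 and 0 kb of H3K9me3, with at most 2086 bp shared, and chromosome 5 from 121270001 to 121290000 held 3.98, 0 and 9.25 kb against 0, 5.52 and 0 kb, with at most 808 bp shared.

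In the remaining 3 named regions the marks were neighbours without a shared base. Chromosome 10 from 62560001 to 62570000 held 3.17, 0 and 3.20 kb of H3K27me3 and 0, 4.60 and 0 kb of H3K9me3. Chromosome 8 from 22970001 to 22980000 held 1.52, 0 and 3.11 kb of H3K27me3 and 0, 3.05 and 0 kb of H3K9me3, and chromosome 16 from 72020001 to 72030000 held 2.32, 0 and 1.73 kb and 0, 2.43 and 0 kb. In each of these the H3K9me3 rested on replicate 2 alone, and H3K27me3 replicate 2 had none.

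Bins with a single mark at E10.5 seldom carried the other mark at E13.5. Of the 8900 bins with H3K27me3 and no H3K9me3 at E10.5, 22.7% had H3K27me3 in a female list and 15.4% in a male list, while 0.0225 and 0.438% had H3K9me3. Of the 13040 bins with H3K9me3 and no H3K27me3, 0.0537% had H3K27me3 in lists of either sex, while 30.4% had H3K9me3 in a female and 90.6% in a male list. Of the 61 bins with both marks, 29.5 and 22.95% had H3K27me3 in female and male lists and 27.9 and 73.8% had H3K9me3. Over all bins the shares were 0.846 and 0.577% for H3K27me3 and 1.91 and 9.66% for H3K9me3, and the male H3K9me3 lists are the long ones.

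The shared length of the marks was set against the rest of the series in pairs of lists with the same replicate number. Log2 of observed over expected averaged 2.06 ± 1.09 in the 3 E10.5 pairs and 2.17 ± 2.03 in the 6 E13.5 pairs, a difference of -0.117 (SD, exact two-sided permutation p = 0.940). Matching by number is a choice, and these SDs do not cover other pairings. Over all 9 E10.5 pairs the values ran from -4.02 to 5.76, with a mean of 1.50 ± 3.16. Only with a minimum score of 20 did this comparison pass the threshold, at -3.17 (exact permutation p = 0.0238), and with the E10.5 lists alone cut to 1107 peaks it turned to 3.51 (exact permutation p = 0.0595). It also changed sign without the pair of replicate 2 (0.158) or of replicate 3 (0.235).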

How the data were processed

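The authors deposited 1 broad peak list per ChIP library in mm9, each called against an input per the peak names. MACS2 2.1.0, deepTools 3.3.0, BWA 0.7.5a, SAMtools, Picard and CASAVA 1.8.4 are named in the submitters' processing notes, with no role or order. No source used here gives the calling thresholds. The deposited score columns are the authors' values per peak. Column 9 exceeded column 8 in 265293 of 265293 peaks, so their scale is unknown, and scores only ranked or filtered peaks. Depth is unknown, and the number of peaks per list limits the precision of its values. The label of an H3K9me3 input of E10.5 replicate 2 gives another stage than its title.

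Groups came from titles. Overlapping peaks were merged, 19 peaks off chromosomes 1 to 19, X and Y were left out, and genome length was the sum of last peak ends (2641.51 Mb). Library means were compared by exact permutation tests (Python 3.11.15, numpy 2.4.6, pandas 2.3.3), and 1-Mb bins by limma 3.58.1 in R 4.3.3 with Benjamini-Hochberg adjustment, both tested on simulated data. No genome or annotation of mm9 was used. Only the chromosome of genes came from RefSeq GRCm38.p6. Alternatives were a score of at least 20, 1107 top-scoring peaks per list, each list left out, a replicate block, other pseudocounts, filters and fits, other minimums for holding a bin, and autosomes alone. Named regions are the 10 most changed 1-Mb bins called in each direction, the 5 longest runs of 10-kb bins held by a single mark in all its lists, and the 10 regions with both marks in the most pairs. The lists, bins and gene families were chosen with earlier results of these data known.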

Additional observations from a re-analysis of the deposited data

How the results depend on the processing

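With a score of at least 20, the bins with both marks numbered 32 and the E10.5 minus E13.5 difference in shared length was -3.17. With 1107 peaks per list, H3K27me3-only bins numbered 219 and bins with both marks 11. Called 1-Mb bins were then 188 (H3K27me3) and 104 (H3K9me3) of 689 tested, against 331 and 254 of 2047 in the main setting. With the same 1107 peaks, the mean shared length was 4.99 and the median distance 1569 kb. The difference in the share of bins holding 50% of the length was 0.767 points. The stage difference was 3.51, with the E10.5 lists cut and the E13.5 lists left at full length. Counting any overlap gave 1216 H3K27me3-only, 221 H3K9me3-only and 823 both-mark bins, and a 5-kb minimum gave 53, 0 and 4. Leaving out each list in turn gave covered-length differences of -5.36 to 17.9 Mb and differences in the share of bins holding 50% of the length of -3.05 to 1.17 points. It gave 628 to 4833 H3K27me3-only bins, 37 to 575 H3K9me3-only bins, 10 to 61 bins with both marks and median distances of 305 to 1323 kb. Called 1-Mb bins were then 186 to 384 and 117 to 298, of 1347 to 1999 tested, and stage differences -0.743 to 0.235. The causes were not tested. Of all calls, 56.6% were higher in H3K27me3, against 64.4% with 1107 peaks per list, 67.0% without H3K9me3 replicate 1, 71.9% without H3K9me3 replicate 2, 52.6% with 10 ppm added and 52.1% with all 18 lists fitted together. Without H3K9me3 replicate 3 the majority turned, at 49.3%. The median log2 change over all bins shifted by 0.29 with 10 ppm added, by -0.29 without the filter and by -0.60 with 1107 peaks per list. The replicate block gave 334 and 244 called 1-Mb bins. Same-numbered lists did not deviate together (correlations of -0.00857, -0.0401 and 0.0256), although the labels list a single input for E10.5 replicate 3. They were therefore not treated as pairs in the main tests between marks. The stage comparison of shared length did use same-numbered pairs. The mean width, wide-peak, X and Y differences and the Jaccard difference kept their sign and side of the threshold in all settings run, although tests of 3 against 3 cannot pass it.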

Other observations

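Peak length was set against gene density over the 19 autosomes. H3K27me3 per Mb correlated with protein-coding genes per Mb at Pearson r of 0.675, 0.585 and 0.703 in replicates 1, 2 and 3, against -0.251, 0.134 and 0.334 for H3K9me3. With the 106 genes picked by symbol from homeobox and Pax families, which are not complete, the values were 0.667, 0.520 and 0.628 for H3K27me3. For H3K9me3 they were -0.515, -0.153 and -0.0952. With the 388 zinc finger genes named Zfp, of which chromosome 7 has 93, they were 0.158, 0.00564 and 0.189 for H3K27me3, against 0.197, 0.511 and 0.410 for H3K9me3. Spearman's rho gave these genes the opposite order, with 0.482, 0.414 and 0.514 for H3K27me3, against 0.104, 0.168 and 0.370 for H3K9me3. Olfactory and vomeronasal receptor genes, 1456 picked by symbol, did not separate the marks by Pearson r, with 0.229, 0.309 and 0.255 for H3K27me3, against 0.0263, 0.384 and 0.297 for H3K9me3. By Spearman's rho they did, with 0.342, 0.354 and 0.396 for H3K27me3, against 0.0175, -0.0316 and 0.0930 for H3K9me3. These are descriptions over chromosomes, which share their libraries, and the gene counts come from another build than the peaks.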
